A study of Mus musculus with 20 samples.

Results

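Young mouse epidermis of animals bred to lose both Wwox and p53 was set against young wild-type epidermis across all genes. The animals labelled with both losses carried K14cre;Wwoxfl/fl;p53fl/fl (DKO), that is, floxed alleles of both genes and a Cre recombinase driven by the keratin 14 promoter, which is active in keratinocytes. The titles of the reference animals give wild type (WT) only. DKO and WT had 3 libraries each, called biological replicates by the labels, and these 6 libraries are taken from 20 in the whole series. Epidermis of mice with K14cre;Wwoxfl/fl (WKO) or K14cre;p53fl/fl (PKO), also 3 libraries each, is used here as a single-loss comparison. All 12 libraries came from mice of 100 to 120 days, from dissociated epidermis and from cells sorted for the red reporter tdTomato, which WT cells carried too. What drives the reporter, and which exons the floxed alleles lose, are details not given in the sources used here.

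WWOX is an oxidoreductase with a pair of WW domains, short modules that bind proline-rich motifs of other proteins such as p73, AP-2 factors, RUNX2, JUN and ezrin, and its gene spans a common fragile site. p53, encoded by Trp53 in the mouse, is the transcription factor that answers DNA damage by raising genes of cell-cycle arrest, apoptosis and repair. In the epidermis, basal keratinocytes with keratins 5 and 14 divide on the basement membrane, and their suprabasal daughters switch to keratins 1 and 10 before they build the cornified envelope and the lipid barrier.

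Total counts were between 12855983 and 17199262 in the DKO libraries and between 12842557 and 16627171 in the WT libraries. Mitochondrial ribosomal RNA took between 20.4% and 36.8% of the counts in DKO and between 23.3% and 38.9% in WT. Xist, which coats the inactive X chromosome, was at 1050, 1629 and 619 CPM in DKO and at 0.231, 439 and 376 CPM in WT, while the Y-linked Eif2s3y had no count in DKO and stood at 26.6, 1.93 and 0.059 CPM in WT. WT library 1 therefore carried Y-linked RNA and almost no Xist. Levels throughout are CPM, that is, counts scaled to a fixed library total after trimmed mean of M-values scaling, so each is a share of a library and not an amount per cell, and the part of sex-linked differences in the results was not tested.

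The targeted genes came first as a check of the labels. Wwox (ENSMUSG00000004637, chromosome 8) had 14, 13 and 74 counts in DKO libraries 1, 2 and 3, against 184, 136 and 155 counts in WT, which is 0.971, 0.989 and 7.61 CPM in DKO libraries, against 10.6, 9.72 and 9.15 CPM in WT libraries. Trp53 (ENSMUSG00000059552, chromosome 11) had 50, 45 and 213 counts in DKO, against 563, 478 and 710 counts in WT, or 3.47, 3.42 and 21.9 CPM in DKO libraries, against 32.5, 34.2 and 41.9 CPM in WT libraries. DKO libraries 1 and 2 held 9.88% and 10.1% of the WT mean of Wwox and 9.58% and 9.46% of that of Trp53. The library labelled DKO young 3 held 77.4% of the WT mean of Wwox and 60.5% of that of Trp53, which goes against its label. All 3 DKO libraries lay below all 3 WT libraries for both genes, and the exact two-sided permutation test gave p = 0.1, the smallest that 3 against 3 allows. In the fit across all genes the log2 fold change was -1.64 with a standard error (SE) of 0.80 for Wwox (adjusted p = 0.147), and -1.93 with an SE of 0.69 for Trp53 (adjusted p = 0.0591). Without library 3 the values were -3.31 (adjusted p = 0.0125) and -3.39 (adjusted p = 0.00856). Counts of genes that changed in the gene lists below are therefore also given without that library.

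**Figure D1:**
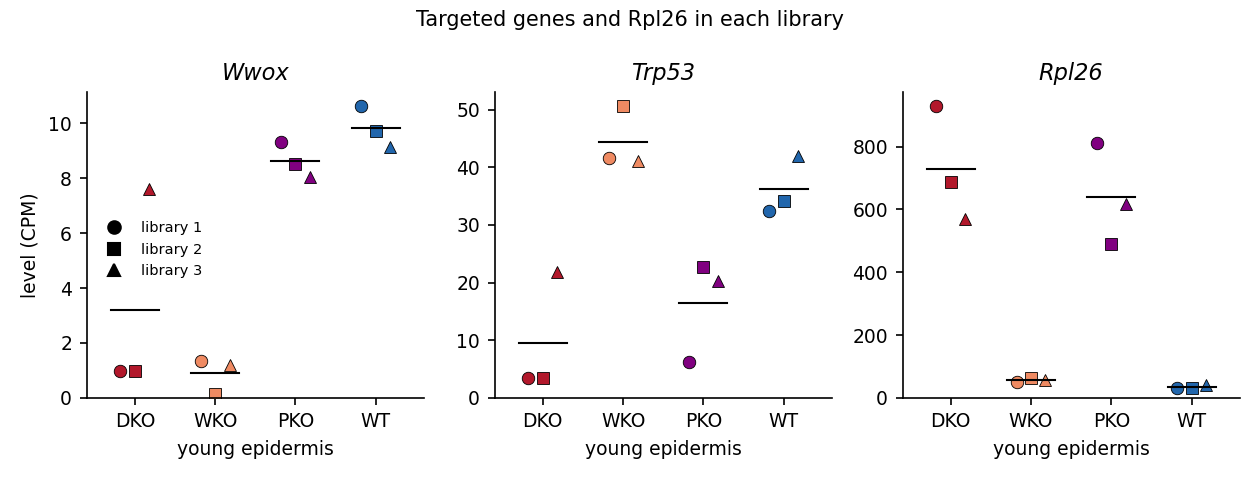
Levels of Wwox and Trp53 (CPM, y axis) in each young epidermis library, with groups along the x axis and a line at each group's mean. DKO libraries 1 and 2 sit at 0.971 and 0.989 CPM of Wwox and at 3.47 and 3.42 CPM of Trp53, while the library labelled DKO young 3 sits at 7.61 and 21.9 CPM.

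Levels of Wwox were 1.33, 0.143 and 1.21 CPM in WKO and 9.34, 8.51 and 8.04 CPM in PKO, and those of Trp53 were 41.6, 50.7 and 41.1 CPM in WKO and 6.23, 22.7 and 20.2 CPM in PKO. Libraries 2 and 3 of PKO thus kept more Trp53 RNA than DKO libraries 1 and 2, at about the level of DKO library 3. Rpl26, a ribosomal protein gene that lies 28 protein-coding genes from Trp53 on chromosome 11, was at 929, 688 and 568 CPM in DKO and at 811, 491 and 616 CPM in PKO, against 51.1, 61.7 and 57.3 CPM in WKO and 30.3, 32.6 and 40.8 CPM in WT. Its groups with a floxed p53 allele, including DKO library 3, did not overlap the others (DKO against WT: log2 fold change 4.40, SE 0.27, adjusted p = 0.000143). Rpl26 was singled out after its values were seen, and reads of ribosomal protein genes can be shared with near-identical copies.

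DKO and WT epidermis differed in a large part of the genes measured. At an adjusted p under 0.05, 4629 of 16627 genes tested changed (27.8%), 2623 of them higher in DKO (15.8%) and 2006 lower (12.1%). Without library 3 the numbers were 4045 of 17305 (23.4%), with 2308 higher (13.3%) and 1737 lower (10%). Of these genes 3459 were called in both fits, all in the same direction, which is 74.7% of the calls made with library 3 and 85.5% of those made without it. Leaving out each DKO and WT library in turn kept 1517 genes in every fit, 1207 higher and 310 lower in DKO, and the lowest count, 1609, came without DKO library 1. The median log2 fold change over all genes tested was -0.04, and -0.06 without library 3. On the first principal component of the 12 libraries, which carried 52.8% of the variance, DKO libraries 1, 2 and 3 lay at -99.8, -81.6 and -26.3 and the WT libraries at 148.3, 108.2 and 102.1. Library 3 thus lay on the DKO side, but nearer to WT than DKO libraries 1 and 2 did.

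The 12 largest rises in DKO included those of Fosl1, Elf3, Ovol1, Cldn4, Krt16 and Sprr1a. Fosl1, which encodes the AP-1 subunit FRA1, was at 429.9, 286 and 367 CPM in DKO libraries, against 3.87, 2.43 and 0.708 CPM in WT libraries (log2 fold change 7.27, SE 1.19, adjusted p = 0.00614). The groups lay far apart, with library 3 between the other DKO libraries. Elf3, an epithelial ETS factor that drives late differentiation genes, was at 97.4, 123 and 47.8 CPM in DKO libraries, against 0.231, 0.786 and 1.59 CPM in WT libraries (6.67). Ovol1, a zinc finger repressor that holds epithelial identity, was at 697, 411 and 469.9 CPM in DKO libraries, against 6.29, 18.9 and 16.5 CPM in WT libraries (5.24). Cldn4, a tight junction claudin, was at 461, 301 and 389 CPM in DKO libraries, against 1.62, 7.29 and 5.43 CPM in WT libraries (6.33), and again the groups lay far apart. Krt16, a keratin of wounded and hyperproliferative epidermis, was at 299, 239.6 and 212 CPM in DKO libraries, against 5.25, 4.93 and 2.48 CPM in WT libraries (5.89). Sprr1a, a small proline-rich precursor of the cornified envelope, was at 514, 206 and 271 CPM in DKO libraries, against 7.1, 7.93 and 5.13 CPM in WT libraries (5.62). The pair Krt16 and Sprr1a was high in all 3 DKO libraries, library 3 included.

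Epgn and Ereg, which encode the EGF receptor ligands epigen and epiregulin, were also among the 12 largest rises. Epgn was at 46.9, 40.5 and 67.6 CPM in DKO libraries, against 0.462, 0.858 and 0.767 CPM in WT libraries (6.21), and Ereg at 25.2, 9.89 and 11.1 CPM in DKO libraries, against 0.231, 0.357 and 0.118 CPM in WT libraries (6.0). Levels of Serpinb3b, Ccl27a and Pyy were lower in library 3 than in libraries 1 and 2. Serpinb3b, a serine protease inhibitor of squamous epithelium, was at 47.9, 64 and 1.95 CPM in DKO libraries, against 0.173, 0.715 and 0 CPM in WT libraries (log2 fold change 7.04, SE 1.53, adjusted p = 0.011). Ccl27a, the keratinocyte chemokine that attracts skin-homing T cells, was at 196, 110.4 and 29.4 CPM in DKO libraries, against 0.808, 1.64 and 3.01 CPM in WT libraries (5.94). Pyy, which encodes the gut hormone peptide YY, was at 23.4, 21.8 and 5.66 CPM in DKO libraries, against 0, 0.429 and 0.236 CPM in WT libraries (6.26). Slc6a14, a neutral and basic amino acid transporter, was highest in library 3, at 17.1, 12.6 and 24.6 CPM in DKO libraries, against 0.462, 0.214 and 0.118 CPM in WT libraries (6.04). All 12 of these genes had adjusted p between 0.00614 and 0.013, and the same genes without library 3 had log2 fold changes of 5.32 to 7.61.

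**Figure D2:**
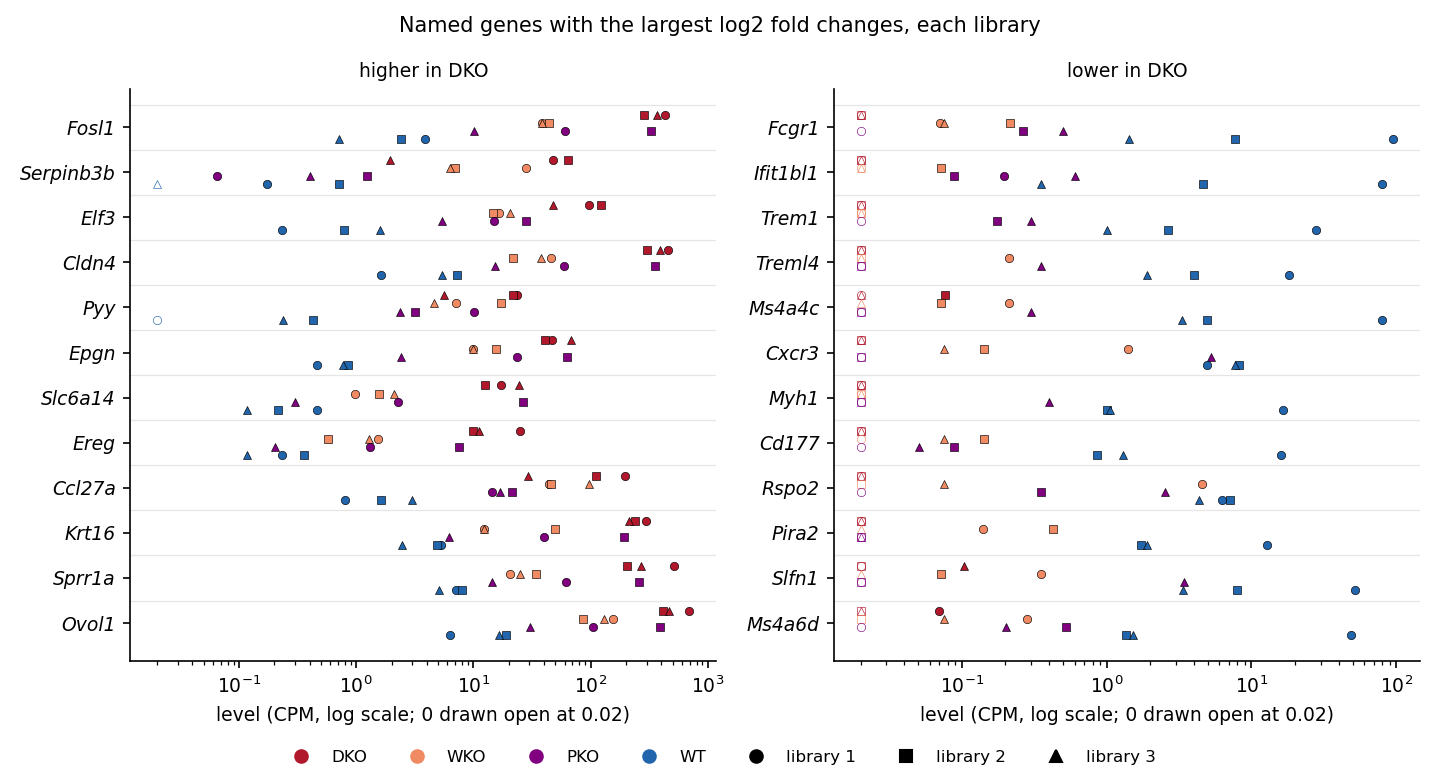
Levels (CPM, log scale, x axis) of the 12 genes with the largest rise and the 12 with the largest fall in DKO against WT, 1 symbol for each young epidermis library and with 0 drawn as an open symbol. Fosl1, Cldn4, Krt16 and Ovol1 are high in every DKO library and in PKO library 2, and the genes that were lower in DKO are mostly highest in WT library 1.

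Structural genes of the keratinocyte itself were higher in DKO, in both the basal and the suprabasal layer. Of 22 basal keratinocyte genes tested, 16 rose and 3 fell (12 and 3 without library 3), with a median log2 fold change of 1.88, against -0.04 over all genes, of which 15.8% rose and 12.1% fell. With a library left out the lowest counts were 8 that rose, without WT library 2, and 0 that fell, without DKO library 1. Krt5 and Krt14, the paired basal keratins, were at 3152, 3561 and 3760.2 CPM in DKO libraries, against 523, 620.1 and 895 CPM in WT libraries for Krt5 (2.36) and at 2323, 2809 and 2963 CPM in DKO libraries, against 409, 506 and 549 CPM in WT libraries for Krt14 (2.47). Neither gene overlapped between the groups, and library 3 was the highest DKO library for both. Krt15, a keratin of basal and hair follicle stem cells, was at 3431, 3223 and 3447 CPM in DKO libraries, against 373, 513 and 742 CPM in WT libraries (2.63). Trp63, whose protein is the p53 relative that specifies stratified epithelium, was at 702, 762 and 486 CPM in DKO libraries, against 66.7, 164 and 199 CPM in WT libraries (log2 fold change 2.18, SE 0.48, adjusted p = 0.0117). Itgb1, the integrin beta 1 subunit that pairs with several alpha chains, was 1 of the 3 basal list members that fell, at 90, 101 and 144 CPM in DKO libraries, against 210.2, 142 and 165 CPM in WT libraries (-0.62 with adjusted p = 0.0483).

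Of 28 suprabasal and cornified envelope genes tested, out of 36 listed, 15 rose and 1 fell (15 and 1 of 29 without library 3), with a median log2 fold change of 2.91. With all libraries that is 53.6% and 3.57%, against 15.8% and 12.1% of all genes. Krt10, the main acidic keratin of the spinous layer, was at 10610.3, 7882 and 6493 CPM in DKO libraries, against 213, 581 and 426 CPM in WT libraries (log2 fold change 4.36, SE 0.82, adjusted p = 0.00758). Krt1, its type II partner, was at 2294, 2042 and 2206 CPM in DKO libraries, against 132, 222 and 159 CPM in WT libraries (3.67). All DKO libraries lay far above all WT libraries for both keratins. Dsg1a, a desmosomal cadherin of the upper layers, was at 1831, 1459 and 1284 CPM in DKO libraries, against 76.1, 173 and 156 CPM in WT libraries (3.50). Asprv1, the protease that processes profilaggrin, was at 152, 72 and 53 CPM in DKO libraries, against 3.92, 6.86 and 3.36 CPM in WT libraries (4.29). The envelope precursor Ivl was at 67.1, 32.4 and 21.3 CPM in DKO libraries, against 9.52, 32.3 and 30 CPM in WT libraries, with groups that overlapped (0.75 with adjusted p = 0.37).

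The ratio of suprabasal to basal RNA was taken after the levels were seen. The summed level of the suprabasal list over that of the basal list was 1.28, 0.81 and 0.747 in DKO, against 0.172, 0.375 and 0.219 in WT, or 0.947 ± 0.292 and 0.255 ± 0.107 (SD, n = 3 each). The ratio of Krt10 to Krt5 was 3.37, 2.21 and 1.73 in DKO, against 0.408, 0.936 and 0.476 in WT. Neither ratio overlapped between the groups, and each had an exact two-sided permutation p of 0.1, or 0.2 without library 3, the smallest that these numbers of libraries allow, so that no threshold of 0.05 could be passed. Since counts are not divided by transcript length, such a ratio can be compared between libraries but does not give the proportion of molecules. In WKO the ratio of the lists was 0.671, 0.33 and 0.407, and in PKO 0.18, 0.759 and 0.312.

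**Figure D3:**
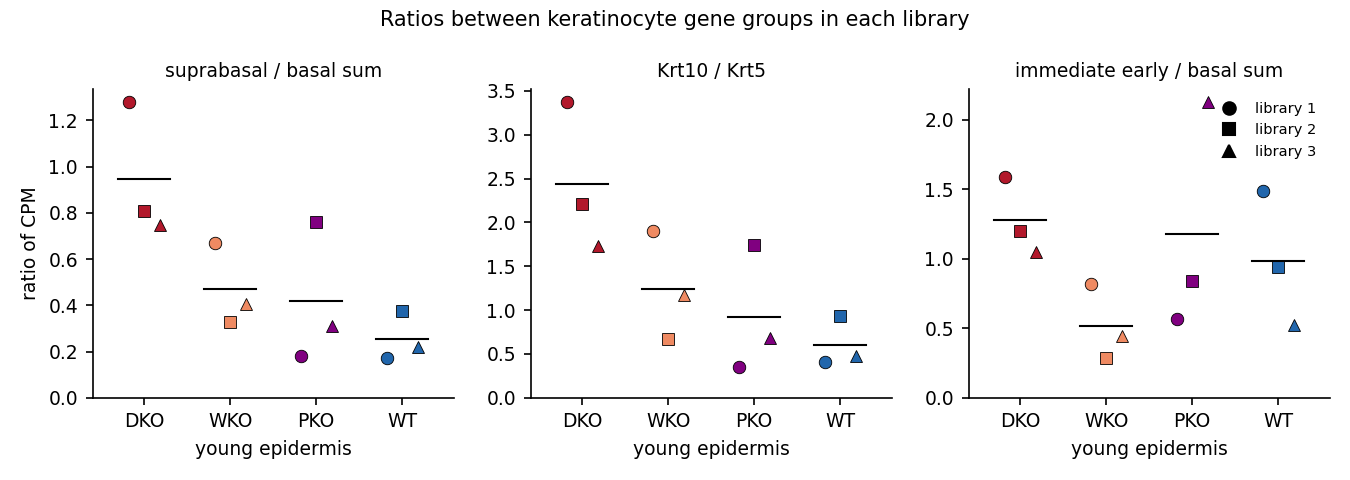
Ratios of summed or single-gene levels (CPM over CPM, y axis) in each young epidermis library, with groups along the x axis and a line at each mean. The suprabasal to basal ratio and the Krt10 to Krt5 ratio of the 3 DKO libraries lie above all 3 WT libraries, while the immediate early to basal ratio overlaps.

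Adhesion genes of keratinocytes moved together. Of 24 genes of hemidesmosomes and desmosomes, the junctions that anchor keratins to the basement membrane and between cells, 20 rose and none fell (19 and none without library 3), with a median log2 fold change of 2.50. Jup, which encodes plakoglobin, was at 1085, 919.9 and 704 CPM in DKO libraries, against 130.1, 167 and 184 CPM in WT libraries (log2 fold change 2.49, SE 0.38, adjusted p = 0.00614). Evpl, the plaque and envelope protein envoplakin, was at 879, 906 and 654 CPM in DKO libraries, against 67.9, 141 and 112 CPM in WT libraries (2.93). Dsc3, a desmocollin of the basal layers, was at 2282, 1701 and 1618 CPM in DKO libraries, against 143, 286 and 300.1 CPM in WT libraries (2.94). Library 3 was the lowest DKO library for these 3 genes and still lay above every WT library. Dsg1b, a second desmoglein 1 gene of the mouse, had a log2 fold change of 3.40.

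Of 27 genes of adherens and tight junctions, 21 rose and none fell, with and without library 3, and the median log2 fold change was 2.08. Cdh1, which encodes E-cadherin, was at 843, 765 and 809.8 CPM in DKO libraries, against 261, 298 and 303 CPM in WT libraries (log2 fold change 1.49, SE 0.22, adjusted p = 0.00614). Its spread within each group was small beside the difference between groups. Tjp3, the scaffold protein ZO-3, was at 50.6, 49 and 40.8 CPM in DKO libraries, against 8.77, 11.6 and 9.32 CPM in WT libraries (2.24). Epcam, an epithelial adhesion molecule that Langerhans cells carry too, was at 415, 261 and 249 CPM in DKO libraries, against 22.3, 62.4 and 66.4 CPM in WT libraries (2.61). Of 19 barrier lipid genes tested, 15 rose and 1 fell (14 and 1 of 21 without library 3), with a median of 2.73. Abca12, the transporter that loads lipid into lamellar granules, was at 309.8, 284 and 191 CPM in DKO libraries, against 6.7, 14.4 and 13.4 CPM in WT libraries (4.51). Alox12e, an epidermal lipoxygenase, was at 1175, 636 and 486 CPM in DKO libraries, against 26, 74.5 and 74.3 CPM in WT libraries (3.72). The acylceramide enzyme Pnpla1 and the transporter Nipal4 had log2 fold changes of 2.73 and 3.08.

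**Figure D4:**
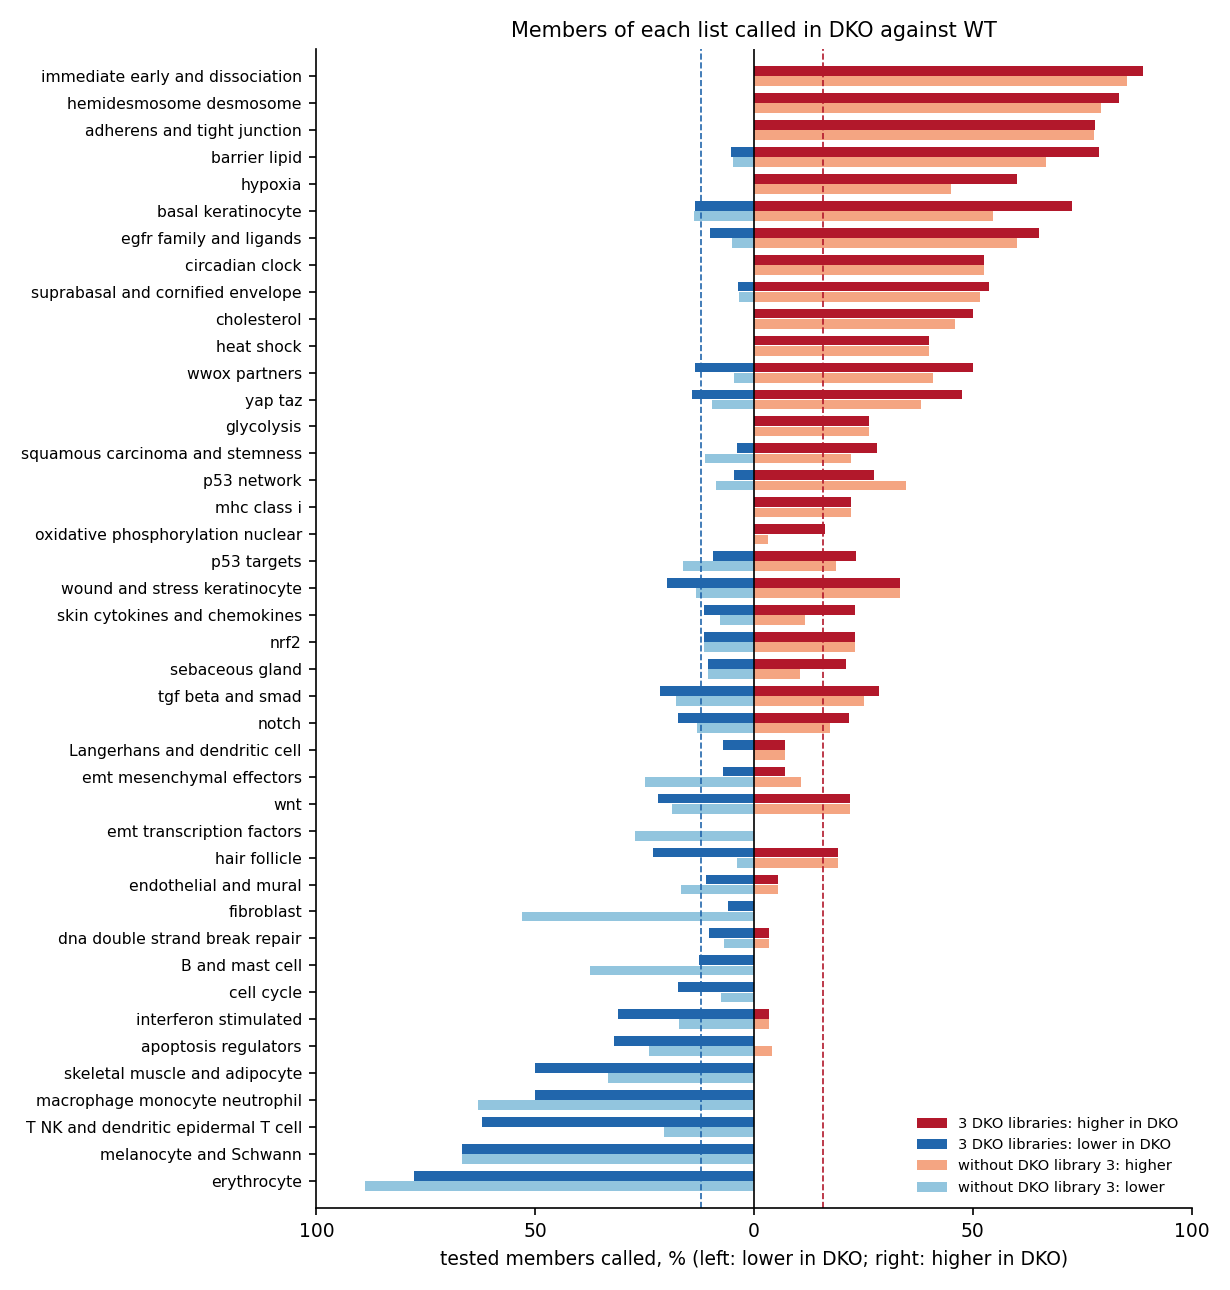
Percent of the tested members of each gene list called lower (bars to the left) or higher (bars to the right) in DKO than in WT, at an adjusted p under 0.05 over all genes. Junction, desmosome, barrier lipid and immediate early lists reach 77.8% to 88.9% higher, against 15.8% over all genes.

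RNA of other cell types was lower in DKO than in WT in most of the marker lists. Summed levels of 29 T and natural killer cell markers were 146.6, 251.5 and 495.3 CPM in DKO, against 3959, 2931 and 3021 CPM in WT, and all 29 lay lower in every DKO library than in every WT library (25% of all genes did so). Of these 29 genes 18 fell (62.1%, against 12.1% of all genes), with a median log2 fold change of -3.66. Without library 3 the median was -4.28 and all 29 still lay lower in both DKO libraries than in WT (31.6% of all genes did so). However, 6 passed the test there (20.7%, against 10% of all genes), and with any 1 DKO or WT library left out between 1 and 6 did. Cd3g, a chain of the T cell receptor complex, was at 20.1, 34.2 and 77.2 CPM in DKO libraries, against 629.9, 458 and 495 CPM in WT libraries, and Ptprc, the pan-leukocyte antigen CD45, at 10.7, 29.2 and 50.7 CPM in DKO libraries, against 744, 455 and 369.5 CPM in WT libraries (-3.59 with adjusted p = 0.0629 for Cd3g and -4.12 with adjusted p = 0.0333 for Ptprc). No T cell marker was at 0 in all DKO libraries.

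Summed levels of the erythrocyte markers were 21.91, 12.78 and 24.89 CPM in DKO, against 1291, 3749 and 900.5 CPM in WT. Of 9 tested genes 7 were lower (77.8%, against 12.1% of all genes), and 8 of 9 without library 3 (88.9%, against 10%). Hba-a1, an alpha globin gene whose reads can be shared with its copy Hba-a2, was at 3.54, 0.837 and 4.11 CPM in DKO libraries, against 373, 1176 and 274 CPM in WT libraries (-7.75). For macrophages, monocytes and neutrophils the sums were 26.63, 28.37 and 160 CPM in DKO, against 2013, 264.4 and 315.4 CPM in WT. Of 18 genes 9 were lower (12 of 19 without library 3, and 2 without DKO library 1). With all libraries that is 50%, against 12.1% of all genes, and without library 3 it is 63.2%, against 10%. Fcgr1, Ly6g and Retnlg were at 0 in all DKO libraries. Lyz2, the lysozyme of these cells, was at 1.66, 0.304 and 57.2 CPM in DKO libraries, against 633, 87.3 and 123 CPM in WT libraries. WT library 1 was the highest WT library in both the T cell and the macrophage list, and the library labelled DKO young 3 the highest DKO library.

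Melanocyte and Schwann cell markers summed to 133.1, 158 and 203.1 CPM in DKO, against 659.2, 484.2 and 631.7 CPM in WT. In both fits 10 of 15 fell (66.7%, against 12.1% of all genes, and 10% without library 3). Mbp, a member of this list, went the other way and made up a large part of the DKO sums. It was at 93.7, 80.9 and 75.4 CPM in DKO libraries, against 54.5, 41.2 and 28.7 CPM in WT libraries (1.01 with adjusted p = 0.0915). Dct, an enzyme of pigment synthesis, was at 3.54, 9.13 and 47.9 CPM in DKO libraries, against 308, 225 and 286 CPM in WT libraries (-3.77 with adjusted p = 0.0106). Kit, the receptor of melanocytes and mast cells, was at 10.6, 7.91 and 16.1 CPM in DKO libraries, against 82.7, 74.6 and 103 CPM in WT libraries (-2.91 with adjusted p = 0.00614). Fibroblast markers summed to 1523, 1047 and 5142 CPM in DKO, against 3075, 1478 and 2640 CPM in WT, so that library 3 lay above all WT libraries. Most of the sum in DKO libraries 1 and 2 was Gsn. Its levels were 1460, 992 and 1730 CPM in DKO libraries, against 879, 272 and 550 CPM in WT libraries (1.30 with adjusted p = 0.0575). Of 17 fibroblast genes 1 fell (5.88%, against 12.1% of all genes), with a median log2 fold change of -0.71. Without library 3, 9 fell (52.9%, against 10%), with a median of -5.55. Col3a1, a fibrillar collagen of dermal fibroblasts, was at 8.46, 0.076 and 1419 CPM in DKO libraries, against 630.1, 329.9 and 586 CPM in WT libraries. Langerhans and dendritic cell markers summed to 650.5, 534.2 and 935.6 CPM in DKO, against 2101, 769.4 and 1173 CPM in WT, which overlapped. Of 14 genes 1 rose, namely Epcam, and 1 fell (1 and none without library 3). With all libraries that is 7.14% each way, below the 15.8% and 12.1% of all genes. Endothelial and mural markers summed to 275.5, 229.3 and 308.4 CPM in DKO, against 233.9, 184.7 and 242.9 CPM in WT, which overlapped. These sums include Notch3, at 188, 152 and 138 CPM in DKO, against 20.8, 47.5 and 43.1 CPM in WT. Of 18 genes 1 rose, namely Notch3, and 2 fell (5.56% and 11.1%, against 15.8% and 12.1% of all genes). The median log2 fold change was -1.62, and 10 lay lower in every DKO library than in every WT library (25% of all genes did so). Without library 3, 1 rose and 3 fell. Markers of muscle and fat summed to 5.27, 3.727 and 22.21 CPM in DKO, against 122.5, 77.32 and 79.31 CPM in WT, with Myh1 and Pvalb at 0 in all DKO libraries. B and mast cell markers summed to 11.3, 10.12 and 36.82 CPM in DKO, against 102.5, 90.47 and 107.6 CPM in WT. Most of the WT sums was Kit, whose levels are given above and which melanocytes share. Of 8 genes tested 1 fell, namely Kit, and none rose (12.5% lower, against 12.1% of all genes). Without library 3, 3 fell (37.5%, against 10%). Merkel cell markers summed to 135.2, 28.75 and 52.66 CPM in DKO, against 9.12, 23.58 and 38.3 CPM in WT. In DKO these sums were mostly Krt8 and Krt18, and neither passed the test (2.45 with adjusted p = 0.0974 and 1.87 with adjusted p = 0.214). Of 4 Merkel cell genes tested none rose and 1 fell (none and 1 of 5 without library 3). That is 25% lower, against 12.1% of all genes, and 20% against 10% without library 3.

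Basal keratinocyte genes summed to 14170, 16550 and 16230 CPM in DKO, against 3642, 3617 and 4621 CPM in WT, and suprabasal genes to 18170, 13410 and 12130 CPM in DKO, against 624.7, 1358 and 1011 CPM in WT. Markers of keratinocytes and of blood cells thus differed in opposite directions between the same libraries. In bulk RNA, fewer cells of a type and less RNA per cell cannot be told apart. The part of cell makeup in the changes of gene groups given here was not tested.

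**Figure D5:**
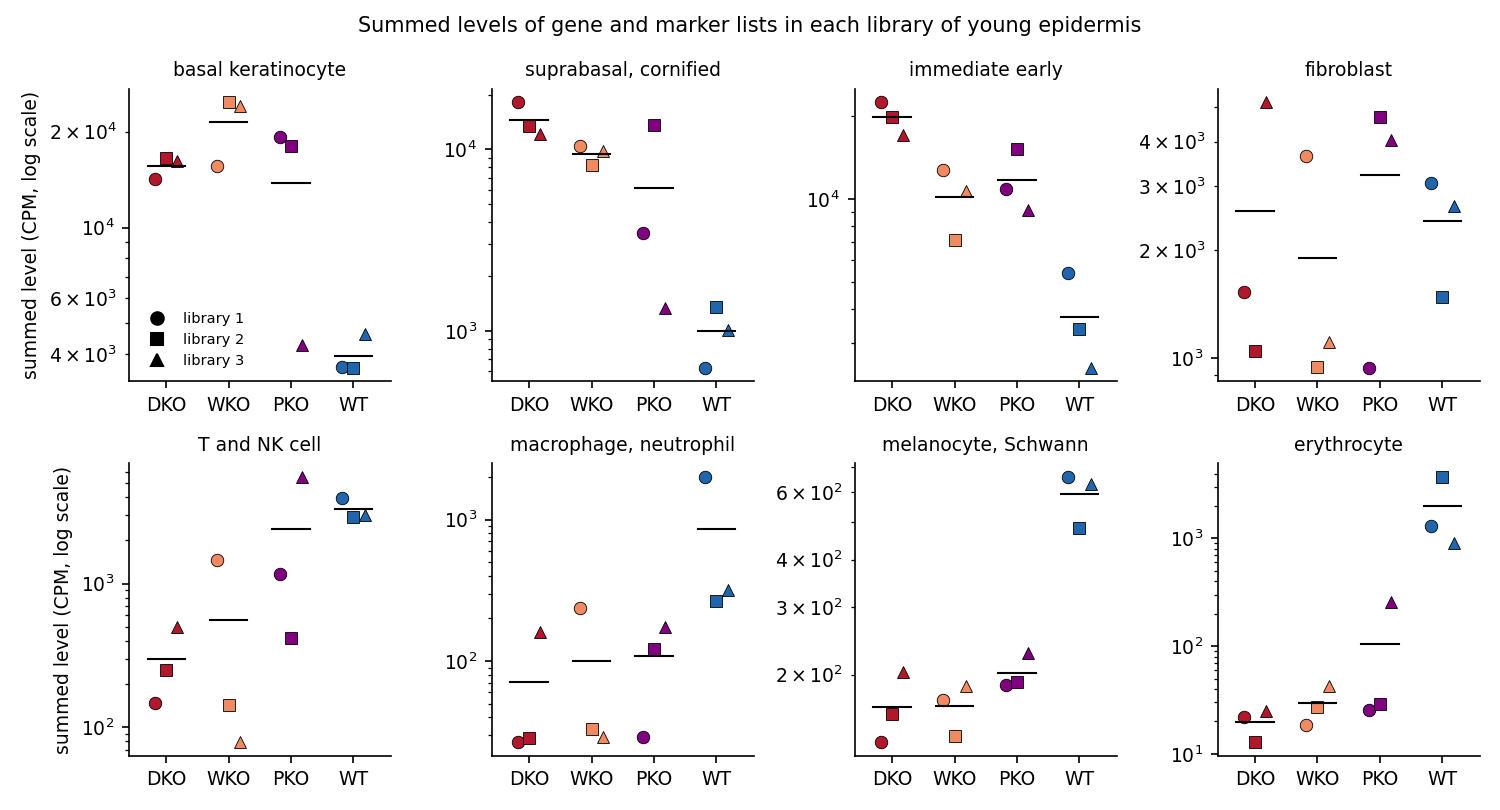
Summed level of each of several gene lists (CPM, log scale, y axis) in each young epidermis library, with groups along the x axis. Basal and suprabasal sums are higher in all DKO libraries than in WT, T cell and erythrocyte sums are lower, and the fibroblast sum of DKO library 3 is above that of every WT library.

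Genes of the immediate early response, which are switched on within minutes by growth factors and by tissue dissociation, were higher in DKO. Of 27 such genes 24 rose and none fell (23 and none without library 3), the highest share among the lists, with a median log2 fold change of 2.42. Jun, the AP-1 subunit that is also a WWOX partner, was at 2686, 2702 and 2058 CPM in DKO libraries, against 516, 438 and 365 CPM in WT libraries (log2 fold change 2.50, SE 0.31, adjusted p = 0.00614). Klf4, a factor of barrier differentiation, was at 956, 766 and 834 CPM in DKO libraries, against 162, 119.6 and 93.5 CPM in WT libraries (2.77). Myc, which drives growth and protein synthesis, was at 403, 299.8 and 216 CPM in DKO libraries, against 19.8, 26.1 and 27.9 CPM in WT libraries (3.64). Egr2, an early growth response factor, was at 229.5, 148 and 117 CPM in DKO libraries, against 14.3, 24.7 and 23 CPM in WT libraries (2.99). None of these genes overlapped between the groups, and DKO library 3 stood above every WT library.

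The summed immediate early level was 22470, 19860 and 17070 CPM in DKO, against 5414, 3391 and 2436 CPM in WT, and its ratio to the basal sum was 1.59, 1.2 and 1.05 in DKO, against 1.49, 0.938 and 0.527 in WT. This ratio overlapped between the groups (exact two-sided permutation p = 0.4). With 3 libraries a group the smallest p of that test is 0.1, so it could not have passed the threshold used here. It therefore cannot decide whether immediate early RNA differed relative to basal keratinocyte RNA.

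In the promoters of these genes, the cyclic AMP response element TGACGTCA (searched on both strands, 250 bases before the start in the RefSeq table of build GRCm38.p6) was found for 3 of 22 genes matched by symbol (13.6%), against 1.77% of all 27025 genes. The AP-1 site TGACTCA was found in 0 of 22, against 5.16% of all genes. The letters in capitals mark the match in Dusp1, a MAP kinase phosphatase (chr17:26508473-26508722, minus strand), Btg2, an antiproliferative p53 target (chr1:134079156-134079405, minus strand), and Maff, a small MAF factor (chr15:79347270-79347519, plus strand), shown because all 3 genes rose. A match is a description of these letters only.
Dusp1: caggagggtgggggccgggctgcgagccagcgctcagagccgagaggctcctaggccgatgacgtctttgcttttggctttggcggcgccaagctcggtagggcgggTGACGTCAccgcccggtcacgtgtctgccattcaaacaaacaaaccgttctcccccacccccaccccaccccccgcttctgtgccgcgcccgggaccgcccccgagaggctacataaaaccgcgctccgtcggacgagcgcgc
Btg2: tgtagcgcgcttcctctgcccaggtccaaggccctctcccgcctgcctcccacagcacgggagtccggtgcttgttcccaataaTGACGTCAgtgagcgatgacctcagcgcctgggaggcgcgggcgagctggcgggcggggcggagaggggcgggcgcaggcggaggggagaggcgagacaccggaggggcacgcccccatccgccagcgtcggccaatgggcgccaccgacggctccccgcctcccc
Maff: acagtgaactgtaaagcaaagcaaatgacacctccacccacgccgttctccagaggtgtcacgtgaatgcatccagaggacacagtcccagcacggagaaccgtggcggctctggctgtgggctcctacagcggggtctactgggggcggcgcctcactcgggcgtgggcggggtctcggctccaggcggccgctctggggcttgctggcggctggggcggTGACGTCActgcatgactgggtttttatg

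The match began 143 bases before the start in Dusp1, 166 in Btg2 and 29 in Maff. Dusp1 was at 889, 866 and 648 CPM in DKO libraries, against 423, 143 and 79.4 CPM in WT libraries (1.90 with adjusted p = 0.0232), with WT library 1 closest to DKO. Btg2 was at 601, 495 and 394 CPM in DKO libraries, against 182, 109 and 80.8 CPM in WT libraries (2.0), and Maff at 64.1, 44.3 and 66.1 CPM in DKO libraries, against 15.6, 10.4 and 6.61 CPM in WT libraries (2.42). In all 3 genes, as in the list sum, library 1 was the highest WT library.

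Heat shock chaperones moved in part. Of 20 heat shock genes 8 rose and none fell, with and without library 3, and the median log2 fold change was 0.43. The share that rose was 40%, against 15.8% of all genes, or 13.3% without library 3. The heat shock element core GAANNTTC (both strands) was found in the promoters of 6 of 15 matched genes (40%), against 7.73% of all genes. These 6 are not independent: Hspd1 and Hspe1 share the same bases in overlapping windows on opposite strands, and the windows of Hspa1a and Hspa1b are near-identical. The core stands in capitals in the promoters of Hspa1a (chr17:34972157-34972406, minus strand), Hspa1b (chr17:34959239-34959488, minus strand) and Hspb1 (chr5:135887669-135887918, plus strand, with 2 matches), the genes with a match that rose.
Hspa1a: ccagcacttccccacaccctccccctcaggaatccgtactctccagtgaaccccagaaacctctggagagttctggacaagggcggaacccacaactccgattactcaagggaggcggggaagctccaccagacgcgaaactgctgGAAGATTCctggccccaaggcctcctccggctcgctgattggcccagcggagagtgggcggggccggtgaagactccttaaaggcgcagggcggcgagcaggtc
Hspa1b: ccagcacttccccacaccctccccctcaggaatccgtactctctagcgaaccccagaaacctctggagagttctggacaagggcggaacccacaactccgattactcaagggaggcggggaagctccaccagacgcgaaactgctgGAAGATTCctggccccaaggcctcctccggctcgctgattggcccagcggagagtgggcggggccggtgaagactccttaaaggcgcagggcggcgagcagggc
Hspb1: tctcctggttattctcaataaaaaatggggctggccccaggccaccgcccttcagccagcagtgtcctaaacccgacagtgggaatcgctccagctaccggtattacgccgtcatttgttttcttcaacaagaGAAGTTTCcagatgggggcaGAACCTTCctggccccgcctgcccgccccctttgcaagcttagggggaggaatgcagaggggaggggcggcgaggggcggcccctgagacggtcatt

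The match began 104 bases before the start in both Hspa1a and Hspa1b, and 117 and 97 bases before it in Hspb1. Hspa1a, which encodes the inducible chaperone HSP70, was at 567, 641 and 431 CPM in DKO libraries, against 89.2, 80 and 77.7 CPM in WT libraries (2.73). Hspa1b, its near-identical neighbour whose reads can be exchanged with it, was at 1244, 1754 and 989.8 CPM in DKO libraries, against 183, 202 and 181 CPM in WT libraries (2.82). Hspb1, the small heat shock protein HSP27 that is also made by differentiating keratinocytes, was at 432, 321 and 259 CPM in DKO libraries, against 29.4, 40 and 35.6 CPM in WT libraries (3.27). Dnajb1, the HSP40 partner of HSP70, was at 472, 401 and 267 CPM in DKO libraries, against 66.7, 68.2 and 57.4 CPM in WT libraries (log2 fold change 2.57, SE 0.28, adjusted p = 0.00614), and Dnajb4, a relative, at 63, 58.7 and 87.7 CPM in DKO libraries, against 22.4, 20 and 19.4 CPM in WT libraries (1.76). For these 5 genes, which were among the 8 that rose, the groups did not overlap. The other 3 genes with a match, the mitochondrial chaperonins Hspd1 and Hspe1 and the cochaperone Dnaja1, overlapped between the groups. Hspd1, for example, was at 113, 102 and 97.1 CPM in DKO libraries, against 70.4, 136 and 147 CPM in WT libraries.

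Ligands and receptors of the EGF receptor family were higher in DKO. Of 20 genes of the family 13 rose and 2 fell (12 and 1 without library 3), with a median log2 fold change of 1.58. With all libraries that is 65% and 10%, against 15.8% and 12.1% of all genes. Hbegf, heparin-binding EGF of wounded epidermis, was at 165, 137 and 118 CPM in DKO libraries, against 4.62, 6.15 and 3.19 CPM in WT libraries (log2 fold change 4.92, SE 0.61, adjusted p = 0.00614). Areg, the ligand amphiregulin, was at 95.7, 44 and 67.7 CPM in DKO libraries, against 2.54, 5.36 and 0.944 CPM in WT libraries (4.56), and Tgfa, transforming growth factor alpha, at 37.5, 25.6 and 12.4 CPM in DKO libraries, against 1.91, 2 and 2.83 CPM in WT libraries (3.48). None of these ligands overlapped between the groups. Among the receptors, Egfr itself was at 169, 169 and 179 CPM in DKO libraries, against 60.7, 81 and 129 CPM in WT libraries (0.93 with adjusted p = 0.0412, and 0.0789 without library 3), while its partners Erbb2 and Erbb3 had log2 fold changes of 2.17 and 1.90. Krt17, a wound keratin, was at 2829.8, 1853 and 1112 CPM in DKO libraries, against 89.5, 204 and 140.4 CPM in WT libraries (3.74). In the list of wound and stress genes 5 of 15 rose and 3 fell (5 and 2 without library 3). With all libraries that is 33.3% and 20%, against 15.8% and 12.1% of all genes.

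Known p53 target genes did not move as a group in one direction. Of 43 tested, 10 rose and 4 fell, or 23.3% and 9.3%, against 15.8% and 12.1% of all genes. Without library 3 it was 8 and 7, or 18.6% and 16.3%, against 13.3% and 10%. The median log2 fold change with all libraries was 0.39. Cdkn1a, the cell-cycle inhibitor p21, was at 249.5, 202 and 275 CPM in DKO libraries, against 55.9, 49.4 and 40.5 CPM in WT libraries (log2 fold change 2.32, SE 0.48, adjusted p = 0.01). Mdm2, the ligase that degrades p53, was at 127, 102 and 105 CPM in DKO libraries, against 55.2, 41.7 and 35 CPM in WT libraries (1.34 with adjusted p = 0.0162). Both genes were singled out with their values seen, and both were higher in every DKO library than in every WT library. The 4 members that fell were Apaf1, Bax, Aen and Dglucy. Aen, an apoptosis-enhancing nuclease, was at 13.2, 13.5 and 16.5 CPM in DKO libraries, against 19.4, 23.9 and 20.2 CPM in WT libraries (-0.56 with adjusted p = 0.0389), and Dglucy, a mitochondrial enzyme of D-glutamate breakdown, at 0.693, 0.608 and 3.08 CPM in DKO libraries, against 11, 5.5 and 5.31 CPM in WT libraries (-2.34 with adjusted p = 0.0435). The groups did not overlap for Aen or Dglucy. The 4 members with the smallest p were Plk2, Sfn, Perp and Btg2. Sfn, the 14-3-3 sigma protein that keratinocytes make as they differentiate, was at 2396, 1807 and 2215 CPM in DKO libraries, against 87.2, 282 and 231 CPM in WT libraries (3.42), and Perp, a desmosome protein, at 2328, 1665 and 1689.7 CPM in DKO libraries, against 157, 353 and 375 CPM in WT libraries (2.68). Plk2, a polo-like kinase, was at 142, 117 and 142 CPM in DKO libraries, against 41.5, 36.9 and 26 CPM in WT libraries (1.94).

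Apoptosis regulators were lower where they changed in the fit of all libraries. Of 25 tested, 8 fell (32%, against 12.1% of all genes) and none rose. The numbers were 6 and 1 without library 3, without DKO library 1 it was 3 that fell, and the median log2 fold change was -0.57. Bax, the pore-forming p53 target, was at 7.97, 6.24 and 10.6 CPM in DKO libraries, against 18, 23.5 and 20.7 CPM in WT libraries (-1.33 with adjusted p = 0.0109), and Bak1, its relative, at 9.08, 8.37 and 6.99 CPM in DKO libraries, against 27.8, 15.2 and 19.4 CPM in WT libraries (-1.35 with adjusted p = 0.00789). Apaf1, the scaffold of the apoptosome, was at 6.03, 7.38 and 10.8 CPM in DKO libraries, against 40.8, 24.1 and 20.2 CPM in WT libraries (-1.82 with adjusted p = 0.00872). The survival gene Bcl2, which lymphocytes and melanocytes express as well, was also lower, at 24.1, 30 and 19.2 CPM in DKO libraries, against 114, 65.6 and 67.9 CPM in WT libraries (-1.75 with adjusted p = 0.0154). The T cell marker sums of the same libraries are given above, and their part in these falls was not tested.

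Most relatives and regulators of p53 did not pass the threshold, and most of those that did were higher in DKO. Of 22 genes, Trp53 itself among them, 6 rose and 1 fell, or 27.3% and 4.55%, against 15.8% and 12.1% of all genes. The median was 0.13. Without library 3 it was 8 and 2 of 23, or 34.8% and 8.7%, against 13.3% and 10%. The 2 that fell there were Atr and the targeted gene Trp53. Besides Trp63, the rises included Ppp1r13l, which encodes the inhibitor iASPP, at 188, 193 and 175 CPM in DKO libraries, against 20.7, 45.5 and 46.9 CPM in WT libraries (2.30), and Trp53bp2, which encodes the activator ASPP2, at 155, 149 and 132 CPM in DKO libraries, against 32.8, 41.4 and 42.8 CPM in WT libraries (1.90). The member that fell with all libraries was Atr, the replication stress kinase, at 16.4, 17.7 and 15.3 CPM in DKO libraries, against 23.8, 31.2 and 29 CPM in WT libraries (-0.76 with adjusted p = 0.00929). Groups did not overlap for any of these genes.

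The list of WWOX partners and interactors also holds Wwox itself. Of its 22 genes 11 rose and 3 fell, or 50% and 13.6%, against 15.8% and 12.1% of all genes, with a median of 0.61. Without library 3 it was 9 and 1, and the 1 that fell was Wwox. Without DKO library 1 it was 5 and 0. Besides Jun, Tfap2c, an AP-2 factor of the epidermis, was at 103, 87.3 and 84.2 CPM in DKO libraries, against 18.9, 25.4 and 27.3 CPM in WT libraries (1.94). Ezr, the membrane linker ezrin, was at 941, 971 and 657 CPM in DKO libraries, against 264, 252 and 202 CPM in WT libraries (1.84). Yap1, a coactivator with WW domains of its own, was at 154, 149 and 129.6 CPM in DKO libraries, against 34.4, 55.2 and 66.6 CPM in WT libraries (1.47 with adjusted p = 0.0113). Runx2, the osteoblast factor, went the other way, at 10.3, 9.66 and 5.86 CPM in DKO libraries, against 50.2, 37.1 and 29.8 CPM in WT libraries (-2.17 with adjusted p = 0.0301, and 0.0798 without library 3). In the list of YAP and TAZ pathway genes 10 of 21 rose and 3 fell (8 and 2 without library 3). With all libraries that is 47.6% and 14.3%, against 15.8% and 12.1% of all genes. Wwtr1, which encodes TAZ, was at 92.6, 78.3 and 89.4 CPM in DKO libraries, against 16.6, 17.7 and 28 CPM in WT libraries (2.06), and Tead3, a DNA-binding partner of YAP and TAZ, at 64.1, 70.3 and 43.8 CPM in DKO libraries, against 9, 13.6 and 18.3 CPM in WT libraries (2.12).

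Of 40 cell-cycle genes tested 7 fell, or 17.5% against 12.1% of all genes. In the fit without library 3 it was 3, or 7.5% against 10% of all genes, so the share that fell was not far from that of all genes in either fit. None rose in either fit, against 15.8% of all genes, or 13.3% without library 3. The number that fell was 0 without DKO library 1 and 12 without WT library 1. The median log2 fold change was -0.86, against -0.04 over all genes. Mki67, the marker of cycling cells, was at 48.2, 85.9 and 73.3 CPM in DKO libraries, against 76, 182 and 187 CPM in WT libraries (-1.10 with adjusted p = 0.0401, and 0.0734 without library 3), with WT library 1 below DKO library 2. Mcm3, part of the replicative helicase, was at 16.7, 20.2 and 19.4 CPM in DKO libraries, against 32.3, 55.5 and 63.4 CPM in WT libraries (-1.42 with adjusted p = 0.017). Cenpa, the centromeric histone, was at 3.54, 4.18 and 6.17 CPM in DKO libraries, against 11.7, 14.9 and 9.97 CPM in WT libraries (-1.40 with adjusted p = 0.012). In double-strand break repair 3 of 29 genes fell and 1 rose (2 and 1 without library 3), shares of 10.3% and 3.45%, below those of all genes. Blm, the Bloom helicase, was at 2.84, 2.89 and 3.08 CPM in DKO libraries, against 8.48, 12.7 and 11.7 CPM in WT libraries (log2 fold change -1.90, SE 0.31, adjusted p = 0.00614), and Nbn, of the MRN complex, was the member that rose, at 34.3, 29.7 and 26.7 CPM in DKO libraries, against 13.2, 20.4 and 22.2 CPM in WT libraries (0.70 with adjusted p = 0.0293).

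The study's title names the epithelial to mesenchymal transition (EMT), and the calls among its genes depended on library 3. None of 10 EMT transcription factors passed the edgeR test in either direction (0 higher and 1 lower at an unadjusted p under 0.05, and 0 and 1 by DESeq2). Without library 3, 3 of 11 fell (27.3%, against 10% of all genes) and none rose. The median log2 fold change was -1.07, and -2.51 without library 3, or -2.37 with genes at 0 taken at their bound. Zeb2, an EMT repressor that leukocytes and melanocytes express as well, was at 1.25, 1.29 and 33.1 CPM in DKO libraries, against 270.0, 86.3 and 65.1 CPM in WT libraries (-3.58 with adjusted p = 0.0909, against -6.78 with adjusted p = 0.0194 without library 3). Zeb1, its relative, was at 5.13, 12.6 and 23.8 CPM in DKO libraries, against 50.5, 39.4 and 38 CPM in WT libraries (-1.63 with adjusted p = 0.203). Snai2, the factor SLUG of basal keratinocytes, was at 19.2, 22.5 and 17.5 CPM in DKO libraries, against 9, 10.4 and 17.9 CPM in WT libraries (0.67 with adjusted p = 0.195). Twist1, a factor of mesenchymal cells, was at 0, 0 and 6.79 CPM in DKO libraries, against 27.2, 5.14 and 8.56 CPM in WT libraries. In Zeb2 and Twist1, libraries 1 and 2 of DKO were at or near 0 and library 3 lay within or near the WT range.

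Among 28 mesenchymal effector genes 2 rose and 2 fell, or 7.14% each, below the 15.8% and 12.1% of all genes. Without library 3 the numbers were 3 and 7, or 10.7% and 25%, against 13.3% and 10%. Itgb6, the epithelial integrin beta 6 of wounds, was at 5.76, 7.61 and 6.07 CPM in DKO libraries, against 1.39, 0.715 and 0.826 CPM in WT libraries (2.72 with adjusted p = 0.00614), and Postn, the matrix protein periostin, at 217, 239 and 293 CPM in DKO libraries, against 28.6, 36.9 and 110.0 CPM in WT libraries (2.09 with adjusted p = 0.00862). These were the 2 members that rose with all libraries. Cdh2, or N-cadherin, was at 0, 0 and 0.823 CPM in DKO libraries, against 8.31, 4.07 and 5.55 CPM in WT libraries (-4.56 with adjusted p = 0.0186), and S100a4, a calcium-binding protein of fibroblasts and leukocytes, at 5.27, 6.31 and 18.9 CPM in DKO libraries, against 145, 84.9 and 89.3 CPM in WT libraries (-3.40 with adjusted p = 0.0408). Vim, the intermediate filament vimentin, was at 70.2, 84.1 and 393 CPM in DKO libraries, against 2697, 1192 and 1038 CPM in WT libraries (-3.17 with adjusted p = 0.0633, against adjusted p = 0.0429 without library 3). Among the DKO libraries, library 3 had the highest level of Postn, Cdh2, S100a4 and Vim, but not of Itgb6, and also the highest fibroblast list sum. That sum lay above every WT library, while Vim, S100a4 and Cdh2 in library 3 lay below every WT library. Its part in these differences was not tested.

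Lists of signalling pathways of skin development held genes that rose and genes that fell, at shares of 21.7% to 28.6% higher and 17.4% to 21.9% lower, against 15.8% and 12.1% of all genes. In the Notch list 5 of 23 rose and 4 fell (4 and 3 without library 3, and 2 and 2 without DKO library 1). Notch3, a receptor of the suprabasal layers and of vessel walls, was at 188, 152 and 138 CPM in DKO libraries, against 20.8, 47.5 and 43.1 CPM in WT libraries (2.10). Lfng, the glycosyltransferase lunatic fringe, was at 5.2, 5.32 and 11.5 CPM in DKO libraries, against 56.7, 41.3 and 41.3 CPM in WT libraries (-2.67), so receptor and modifier went opposite ways. In the Wnt list 7 of 32 rose and 7 fell (7 and 6 without library 3, and 3 and 3 without DKO library 1). Wnt7b, a ligand made by keratinocytes, was at 78.2, 75.2 and 49.6 CPM in DKO libraries, against 2.48, 6.15 and 7.67 CPM in WT libraries (3.64). Notum, a secreted Wnt antagonist and feedback target, was at 0.347, 0.152 and 1.03 CPM in DKO libraries, against 36.5, 10.9 and 21.2 CPM in WT libraries (-5.53). Nkd1, a second feedback target, and Lef1, the DNA-binding partner of beta-catenin in T cells and hair follicles, had log2 fold changes of -2.59 and -3.94. In the TGF-beta list 8 of 28 rose and 6 fell (7 and 5 without library 3, and 5 and 1 without DKO library 1). Id1, a target of BMP signals, was at 185, 163 and 84.3 CPM in DKO libraries, against 13.5, 26.3 and 17.3 CPM in WT libraries (2.92), and Tgfbr1, the type I receptor, at 26.3, 29.3 and 22.4 CPM in DKO libraries, against 63.4, 54.3 and 47.9 CPM in WT libraries (-1.09).

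Among lists of metabolism and stress, the hypoxia list had 12 of 20 genes that rose and none that fell (9 and none without library 3, and 5 that rose without DKO library 1), with Ndrg1, a stress-induced differentiation gene, at 198, 168 and 117 CPM in DKO libraries, against 38.9, 26.9 and 42.1 CPM in WT libraries (2.16). Pdk1, the kinase that closes the entry of pyruvate into mitochondria, was at 50.2, 42.2 and 35.8 CPM in DKO libraries, against 13.4, 15.7 and 11.5 CPM in WT libraries (1.66). In the cholesterol list 12 of 24 rose and none fell (11 and none without library 3, and 4 that rose without DKO library 1). Mvk, mevalonate kinase, was at 38.7, 26.3 and 33.9 CPM in DKO libraries, against 7.45, 8.36 and 8.32 CPM in WT libraries (2.04). With all libraries 60% of the hypoxia list and 50% of the cholesterol list rose, against 15.8% of all genes. These lists shared the direction of the keratinocyte genes. In glycolysis 5 of 19 rose and none fell, in both fits (26.3% higher, against 15.8% of all genes with all libraries). Hk2, hexokinase 2, was at 139, 151 and 102 CPM in DKO libraries, against 55.6, 28.3 and 22.5 CPM in WT libraries (1.88). Of 31 nuclear genes of oxidative phosphorylation 5 rose and none fell, at 16.1% the same share as over all genes (15.8%). Without library 3 it was 1 (3.23%, against 13.3%), and the number ran from 0 without DKO library 1 to 11 without DKO library 2. In the circadian list 10 of 19 rose and none fell in both fits (52.6% higher, against 15.8% of all genes with all libraries). Bhlhe40, a clock repressor that is also an early response gene, was at 588, 522 and 347 CPM in DKO libraries, against 106, 73.5 and 57.4 CPM in WT libraries (2.62). In the NRF2 list 6 of 26 rose and 3 fell, in both fits (23.1% and 11.5%, against 15.8% and 12.1% of all genes with all libraries). Me1, malic enzyme, was at 219, 144 and 122 CPM in DKO libraries, against 11.4, 26.7 and 24 CPM in WT libraries (2.96), and Slc7a11, the cystine transporter, at 3.33, 3.12 and 0.72 CPM in DKO libraries, against 50, 9.15 and 10.6 CPM in WT libraries (-3.26).

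Immune and hair follicle genes gave a mixed picture. Over all genes 15.8% rose and 12.1% fell (13.3% and 10% without library 3). With all libraries the shares were 3.45% and 31% for interferon-stimulated genes and 22.2% and 0% for MHC class I. They were 23.1% and 11.5% for cytokines and chemokines and 19.2% and 23.1% for hair follicle genes. For sebaceous gland genes they were 21.1% and 10.5%, and for squamous carcinoma and stemness genes 28% and 4%. Of 29 interferon-stimulated genes 9 fell and 1 rose (5 and 1 without library 3), with a median of -1.56. The number that fell was 0 without DKO library 1, 3 without WT library 1 and 13 without WT library 3. Ifit3, an antiviral RNA-binding factor, was at 0.139, 0.076 and 0.926 CPM in DKO libraries, against 197, 12.9 and 2.6 CPM in WT libraries (-7.66), and Rsad2, the antiviral enzyme viperin, at 1.66, 0.989 and 2.57 CPM in DKO libraries, against 340.2, 28 and 2.01 CPM in WT libraries (-6.16). WT library 1 alone held most of the level in WT, and its interferon list sum of 2365 CPM stood beside 366.1 and 221.2 CPM in WT libraries 2 and 3 and 344.6, 352.1 and 353.8 CPM in DKO. Ifi27, a mitochondrial interferon target, was the member that rose, at 34.5, 28.5 and 31.2 CPM in DKO libraries, against 7.04, 8.07 and 7.2 CPM in WT libraries (2.08). Of 18 genes of MHC class I presentation 4 rose and none fell, in both fits, with H2-K1, a classical class I chain, at 861, 646 and 677 CPM in DKO libraries, against 545, 387 and 354 CPM in WT libraries (0.77). Among cytokines and chemokines 6 of 26 rose and 3 fell (3 and 2 without library 3). Besides Ccl27a, the rises included Il34, the ligand that maintains Langerhans cells, at 51.5, 40.1 and 44.9 CPM in DKO libraries, against 2.14, 4.22 and 5.55 CPM in WT libraries (3.52). Of 26 hair follicle genes 5 rose and 6 fell, and 5 rose and 1 fell without library 3. Without DKO library 1 it was 3 that rose and 0 that fell. Krt79, a keratin of the upper hair canal, was at 2674, 1027 and 1235 CPM in DKO libraries, against 80.2, 213 and 131 CPM in WT libraries (3.54), and Sox9, a follicle stem cell factor, at 205, 146 and 107 CPM in DKO libraries, against 24.8, 30.2 and 33 CPM in WT libraries (2.38). Msx2, a factor of the hair matrix, was at 3.61, 4.94 and 4.11 CPM in DKO libraries, against 9.81, 34.9 and 35 CPM in WT libraries (-2.65). In the sebaceous gland list 4 of 19 rose and 2 fell (2 and 2 without library 3), with Acsbg1, an acyl-CoA synthetase, at 179, 174 and 134 CPM in DKO libraries, against 21.5, 30.7 and 34.5 CPM in WT libraries (2.49) and Soat1, which esterifies cholesterol, at 30.6, 13.7 and 30.1 CPM in DKO libraries, against 120.4, 87 and 68.3 CPM in WT libraries (-1.89). In the list of squamous carcinoma and stemness genes 7 of 25 rose and 1 fell (6 and 3 of 27 without library 3), with Klf5, a proliferation factor of basal epithelium, at 602, 455 and 459.7 CPM in DKO libraries, against 36.8, 61.2 and 72.9 CPM in WT libraries (3.15).

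Of the 12 genes with the largest falls in DKO, 9 had no count in any DKO library. Fcgr1, a high-affinity Fc receptor of macrophages, was at 0 in all DKO libraries, against 95.2, 7.65 and 1.42 CPM in WT, at least 432-fold lower by a floor of 3 counts over the DKO group. Trem1, a receptor of neutrophils and monocytes, was at 0 in DKO, against 28.1, 2.64 and 1 CPM in WT, at least 132-fold lower. In both, WT library 1 stood far above WT libraries 2 and 3, and without it the bounds were 56.3-fold and 22.7-fold. Cxcr3, a chemokine receptor of T cells, was at 0 in DKO, against 4.91, 8.22 and 7.73 CPM in WT, at least 86.4-fold lower, and Rspo2, a Wnt agonist of the dermal papilla, at 0 in DKO, against 6.23, 7.08 and 4.31 CPM in WT, at least 73-fold lower. For this pair the 3 WT libraries lay close together. The other genes at 0 in DKO were Ifit1bl1, Treml4, Myh1, Cd177 and Pira2, at least 68-fold to 353-fold lower. These 5 were also highest in WT library 1, and without it the bounds were 12.8-fold to 36.6-fold. Ms4a4c, Slfn1 and Ms4a6d had a count in 1 DKO library each. Without library 3 the adjusted p of Cxcr3 was 0.0697, of Rspo2 0.0788 and of Myh1 0.063, while the other 9 stayed below 0.05. In the fit without that library the 6 largest rises were Serpinb3b, Fosl1, Elf3, Pyy, Ccl27a and Cldn4, all among the 12 above. The 6 largest falls there included Fcgr1, Ifit1bl1, Slfn4 and Ms4a6b, each at 0 in DKO libraries 1 and 2. Slfn4, a myeloid interferon target, was at 0 in all DKO libraries, against 174, 20.7 and 0.59 CPM in WT (adjusted p = 0.0483 without library 3). WT library 1 again held most of the WT level. Ms4a6b, a lymphocyte membrane gene, was at 0, 0 and 0.206 CPM in DKO libraries, against 60.3, 14.9 and 8.91 CPM in WT libraries.

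The libraries labelled DKO were next set against those labelled with loss of 1 gene alone. Of these, DKO library 3 held Trp53 at 21.9 CPM and PKO libraries 2 and 3 at 22.7 and 20.2 CPM, against a WT mean of 36.2 CPM. The comparisons share the DKO libraries, and those with WT share the WT libraries. Basal sums were 14170, 16550 and 16230 CPM in DKO, 15620, 24750 and 24060 CPM in WKO, 19190, 18030 and 4276 CPM in PKO and 3642, 3617 and 4621 CPM in WT. Suprabasal sums were 18170, 13410 and 12130 CPM in DKO, 10480, 8168 and 9800 CPM in WKO, 3450, 13680 and 1334 CPM in PKO and 624.7, 1358 and 1011 CPM in WT. PKO library 3 lay within the WT range in both lists, and at 5563 CPM it had the highest T cell marker sum of the 12 libraries. Immediate early sums were 22470, 19860 and 17070 CPM in DKO, 12770, 7128 and 10700 CPM in WKO, 10930, 15160 and 9101 CPM in PKO and 5414, 3391 and 2436 CPM in WT, and so were above WT in every library labelled DKO, WKO or PKO.

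Against WKO, 1 gene of 16627 passed the threshold (0.00601%), or 6 without DKO library 3, while 2275 had an unadjusted p under 0.05 and DESeq2 called 605. The gene was Rpl26, with a log2 fold change of 3.68 (adjusted p = 0.000606) and the levels given above. By p alone the next genes were Zfp131, Icam1, Suco, Fbxo30 and Akirin1. Icam1, the leukocyte adhesion molecule of activated keratinocytes and endothelium, was at 263, 241 and 178 CPM in DKO, against 36.3, 54.6 and 41 CPM in WKO (log2 fold change 2.37, adjusted p = 0.0984). Zfp131, a zinc finger gene, was at 55.5, 49.1 and 44.3 CPM in DKO, against 25.1, 23.7 and 22 CPM in WKO (1.07, adjusted p = 0.066). Suco was at 68.9, 62.1 and 67.9 CPM in DKO, against 30.5, 25.1 and 29.3 CPM in WKO (1.23, adjusted p = 0.0984). These groups did not overlap, and none passed the threshold over all genes. Fosl1, with the largest rise against WT, was at 38.5, 44.1 and 38.6 CPM in WKO (DKO against WKO: log2 fold change 3.16, adjusted p = 0.228).

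Against PKO, no gene passed with edgeR (0 of 16627, 0%), while 2742 had an unadjusted p under 0.05 and DESeq2 called 302. Without DKO library 3 the edgeR count stayed at 0. Without PKO library 2, the PKO library with the highest suprabasal sum, the count was 403, with 269 higher and 134 lower in DKO. The smallest p belonged to Mindy2, Hist1h1c, Bace1, Arhgef3 and Uba6. Hist1h1c, a linker histone gene whose reads can be shared with other histone genes, was at 99.9, 106 and 136 CPM in DKO, against 251, 168 and 274 CPM in PKO (log2 fold change -1.02, adjusted p = 0.274). Bace1, a protease that cleaves the amyloid precursor, was at 6.31, 6.54 and 9.15 CPM in DKO, against 20.2, 12.3 and 16.3 CPM in PKO (-1.15, adjusted p = 0.274). Mindy2, a deubiquitinase, was at 49, 52.6 and 45.7 CPM in DKO, against 25, 31.9 and 19.8 CPM in PKO (0.94, adjusted p = 0.274). Their libraries lay apart, but none of these differences passed over all genes. Fosl1 was at 60.2, 326 and 10.1 CPM in PKO, and library 2 alone came near the DKO levels (DKO against PKO: 1.45, adjusted p = 0.413).

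Whether the double loss differed from the sum of the single losses was tested as DKO minus WKO minus PKO plus WT. No gene passed with edgeR (0 of 16627, 0%), with 3382 at an unadjusted p under 0.05 and 1334 by DESeq2. Without DKO library 3 it was 2. Without PKO library 3 the count was 1199, of which 297 were positive and 902 negative. The 5 smallest p, each with an adjusted p of 0.111, were those of Vmn1r76, Mettl7b, Dbp, Gpld1 and Ddt. Dbp, an output factor of the circadian clock, was at 27.9, 28.8 and 29.2 CPM in DKO, 65.9, 95.8 and 71 CPM in WKO, 75.3, 36.1 and 51.9 CPM in PKO and 30, 22.7 and 34.1 CPM in WT (difference of log2 changes -2.35). DKO and WT were alike in range there, and WKO and PKO lay above both. Gpld1, a phospholipase that cleaves lipid anchors, was at 32.3, 25.4 and 25.5 CPM in DKO, 23.9, 32.5 and 34.2 CPM in WKO, 30.6, 23.9 and 13.5 CPM in PKO and 4.21, 5.22 and 4.78 CPM in WT (-2.38). The DKO, WKO and PKO libraries all lay above WT and overlapped each other. Mettl7b, a lipid droplet methyltransferase, was at 0.971, 0.685 and 1.65 CPM in DKO, 9.27, 13.5 and 9.66 CPM in WKO, 5.32, 1.4 and 1.61 CPM in PKO and 0.173, 0.143 and 0.59 CPM in WT (-6.45).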

How the data were processed

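Bulk RNA was measured in 12 young epidermis libraries made, per the labels' protocols, from 5 ng of RNA of sorted tdTomato-positive cells with a stranded low-input total RNA kit. Expected counts, estimated for 51123 gene identifiers in 20 libraries, are what the authors deposited, already as whole numbers. Per the submitters' processing notes, the tools were Salmon 0.13.1, DESeq2 1.28.1, Trim Galore 0.4.1 and FastQC 0.11.5, and the build was mm39, with no role or order given. The sources used here do not say whether molecular identifiers entered the counts. Such estimates split reads between near-identical genes, which leaves histone, globin, keratin, ribosomal protein and heat shock copies uncertain. Symbols were matched for 48246 identifiers from a table of gene names, and promoter sequences are those of RefSeq on another build, GRCm38.p6.

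From the counts, edgeR 4.0.16 in R 4.3.3 was run on the 12 libraries together with TMM scaling, filterByExpr and the quasi-likelihood F test, and p-values were adjusted by Benjamini-Hochberg at 0.05 over all genes tested. The step was also tested on simulated data. Levels are CPM with the same scaling. A gene with no count in a group is given a bound from a floor of 3 counts over the group, which covers counting error only. The labels call the samples biological replicates without naming animals, so p-values measure the spread between these samples.

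The comparisons, 33 gene lists and 10 marker lists were chosen with earlier results of these data known. Genes were named by rule: the 12 largest changes each way against WT with an adjusted p under 0.05, no overlap and a mean of 5 CPM or more in whichever group was higher, leaving aside predicted genes, small RNAs, and antigen receptor, mitochondrial and ribosomal protein genes, then up to 4 members of each list by smallest p, up to 3 of each marker list by level, the 6 largest each way without DKO library 3, and the 5 smallest p of each other comparison. Wwox and Trp53 were always named. Some genes that the rule names are not reported here. Krt5, Krt1, Itgb1, Ivl, Dusp1, Maff, Hspb1, Hspd1, Hspe1, Dnaja1, Egfr, Erbb2, Erbb3, Cdkn1a, Mdm2, Aen, Dglucy, Runx2, Twist1, Vim, Lef1 and Rpl26 fall outside it and were named with their values seen. Alternatives were other scalings and filters, DESeq2 1.42.0, limma 3.58.1, other sets of libraries, a test against a log2 change of 1, the replicate number as a block, and each library left out in turn.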

Additional observations from a re-analysis of the deposited data

How the results depend on the processing

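With DKO against WT, the count of 4629 genes was 4632 with RLE and 4572 with TMMwsp scaling, 3928 with no low-count filter, 3675 at a minimum of 10 CPM, 5827 with DESeq2, 6752 with limma voom and quality weights, 4811 with 6 libraries in the fit and 3145 with all 20. It was 702 when tested against a log2 change of 1, and 1609 to 4045 with a library left out, lowest without DKO library 1. Without library 3 the count of 4045 was 494 against a log2 change of 1, and 15 to 2386 with a further library left out, the 15 being without DKO library 1 (1036 without DKO library 2). That leaves 1 DKO library, which is then assumed to vary like the other groups. Added after seeing the data, leaving out PKO libraries 2 and 3 gave 5440, and 5427 with DKO library 3 out too. DKO against WKO gave 605 genes with DESeq2 and 1 to 6 with a library left out. DKO against PKO gave 302 and 0 to 403, and 0 and 2 in the 2 fits without those PKO libraries. The test of non-additivity gave 1334 and 0 to 1199, and 738 and 452 in those fits. The cause was not tested. DKO against PKO reached 403 without PKO library 2, non-additivity 1199 without PKO library 3, and DKO against WKO 6 without DKO library 3.

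Of the 24 genes with the largest changes, 11 were tested at a minimum of 10 CPM and all of these were called, while the filter removed the other 13, and 16 to 22 were called with a library left out. The 376 distinct list members called were 194 to 342 with a library left out, lowest without DKO library 1. The log2 fold change of Wwox ranged from -3.31 to -1.20 and that of Trp53 from -3.39 to -1.52 with a library left out, and both passed only without DKO library 3. Of 125 named genes called against WT, 27 lost the call without DKO library 1, 7 without DKO library 3, 47 when tested against a log2 change of 1 and 10 under the replicate block. With each library left out in turn, 98 kept it in every such fit that tested them, and none of the 125 changed sign in any setting that gave a value. Of the uncalled genes, Col3a1 (-0.12) was at -6.90 without DKO library 3 and changed sign to 0.46 without DKO library 1, 0.47 without DKO library 2 and 0.10 without WT library 1, and Hspd1 (-0.18) ranged from -0.42 to 0.02, positive without WT library 3.

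The labels number the replicates without stating a pairing. Deviations of same-numbered libraries from their group means correlated at -0.465 to 0.377 over 18 pairs, and at -0.166 to 0.19 for DKO and WT. For differently numbered libraries the range was -0.421 to 0.564. Since the deviations of 3 libraries sum to 0 within a group, this check cannot decide whether same-numbered libraries shared a batch. With the replicate block the counts were 3590 for DKO against WT, 1311 without library 3, and unchanged at 1, 0 and 0 for DKO against WKO, DKO against PKO and non-additivity.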
